A study of Mus musculus with 6 samples.

Results

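The core circadian clock was read in 10 genes, *Arntl*, *Clock*, *Per1*, *Per2*, *Per3*, *Cry1*, *Cry2*, *Nr1d1*, *Nr1d2* and *Dbp*, which were taken by gene symbol from the 22295 genes of the count table. All 10 had counts in each of the 6 libraries, and they were among 21681 genes with a count in at least 1 library. The rule uses gene names and no measured values. RNA was sequenced from GFP-positive keratinocytes, which were FACS sorted from the epidermis of mice during the short DMBA/TPA treatment that starts skin tumors. These cells are the K19-expressing cells of the hair bulge (HB) and their progeny.

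The 3 WT libraries came from 19(Cre-ERT); mTmG mice and the 3 KO libraries from 19(Cre-ERT); mTmG; Itga3 fl/fl mice, both bred on FVB (FVB/N in the study's methods). The K19 promoter drives a Cre that tamoxifen activates, and mTmG is a reporter that switches cells with active Cre, and their progeny, to GFP. Both genotypes therefore carried Cre and the reporter, and both received tamoxifen (10 mg/ml for 4 days, at 6 weeks of age), 1 dose of 30 µg DMBA at 7 weeks of age, and 2 weeks of TPA at 12.34 µg per application, as the sample descriptions give it. The study's methods give another tamoxifen dose and age, and add topical tamoxifen. Only the KO mice could lose *Itga3*, which encodes the α3 subunit of the laminin receptor α3β1. *Itga3* was at 371, 252 and 271 CPM (reads of a gene relative to all reads of its library) in the WT libraries and at 131, 124 and 134 CPM in the KO libraries, and its log2 fold change was -1.20 (SE 0.13, adjusted p = 0.00283, edgeR's quasi-likelihood test). The time of day at which the mice were killed is not given in the sources used here, so no library can be placed at a clock time.

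The libraries held 20578309 to 23670507 counts. At that depth the floor of 3 counts equals 0.127 to 0.146 CPM, and the lowest member count was 63. All 5 HB and basal keratinocyte markers (*Krt15*, *Cd34*, *Lgr5*, *Krt5*, *Krt14*) were above the floor in each library, with a summed level of 30487 to 47179 CPM, most of it *Krt5* and *Krt15*. *Cd34* was lower in KO without overlap (log2 fold change -0.72, adjusted p = 0.0462, edgeR), and *Lgr5* was at -0.47 (adjusted p = 0.283). Of the other cell types, fibroblast markers (6 genes) summed to 116 to 178 CPM in WT and 48.1 to 80.3 CPM in KO, a difference carried by *Col1a1* and *Col1a2*. *Col3a1* and *Lum* were at or below the floor in every WT library and *Col3a1* reached 1.40 CPM in KO c. *Dcn* had the other sign, at 0.826, 1.69 and 0.573 CPM in WT and 5.44, 1.55 and 4.11 CPM in KO (log2 fold change 1.84, adjusted p = 0.113, edgeR). Markers of the inner root sheath and hair shaft (5 genes) summed to 9.36 to 13.3 CPM in WT and 14.8 to 33.5 CPM in KO, and 3 of them (*Krt25*, *Krt28*, *Krt35*) were higher in KO (adjusted p = 0.0256 to 0.0462, edgeR). Immune (6 genes), melanocyte (5 genes), endothelial (5 genes) and muscle (3 genes) markers each summed to at most 13.4 CPM in any library, with *Lyz2*, *Cdh5* and *Emcn* at or below the floor throughout. The part of these cells in the results on clock genes was not tested. In sorted bulk samples, fewer cells of a type and less RNA per cell cannot be told apart.

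The mammalian clock is a feedback loop of transcription. The proteins of *Arntl* (BMAL1) and *Clock* bind together to E-boxes and switch on the *Per* and *Cry* genes, whose products then block them. The same pair drives *Nr1d1* and *Nr1d2*, whose REV-ERB proteins repress *Arntl* through ROR elements, and *Dbp*, an output gene whose product acts on D-boxes. In a running clock *Arntl* therefore peaks opposite to *Nr1d1* and *Dbp*, and epidermal and hair follicle stem cells are known to have such clocks.

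These elements were searched for in RefSeq promoter windows (build GRCm38.p6, 250 bases before to 50 after a start), which were found for 9 of the 10 genes, in 13 windows. The motifs were the E-box CACGTG, an E-box variant CACGTT, the D-box TTANGTAA, the core of the ROR element TNGGTCA and the cAMP response element TGACGTCA, each on both strands. The E-box and its variant share all but the last letter, and no searched match overlapped another in the windows shown. Over all 32851 windows of this length, 7.15% held the E-box, 4.68% its variant, 2.32% the D-box, 11.0% the ROR core and 1.79% the cAMP response element. Among the members, the E-box was found in 2 genes (*Per1*, *Cry1*), its variant in 3 (*Cry1*, *Cry2*, *Nr1d1*), the D-box in 1 (*Per3*), the ROR core in 3 (*Arntl*, *Per3*, *Cry2*) and the cAMP response element in 0. A match describes letters in a window, and it does not show that a factor binds there. The 250 bases before a start are shown for an activator, for 3 genes of the repressor arm and for *Nr1d1*, in windows that hold matches to these motifs. Capitals mark the motif matches.
Arntl, chr7:113207215-113207464, plus strand: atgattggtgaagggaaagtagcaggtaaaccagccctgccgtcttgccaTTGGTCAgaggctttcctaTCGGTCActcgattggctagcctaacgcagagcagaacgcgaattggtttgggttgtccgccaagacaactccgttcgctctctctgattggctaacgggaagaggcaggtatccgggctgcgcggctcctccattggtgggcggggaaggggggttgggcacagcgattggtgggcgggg
Per1, chr11:69098699-69098948, plus strand: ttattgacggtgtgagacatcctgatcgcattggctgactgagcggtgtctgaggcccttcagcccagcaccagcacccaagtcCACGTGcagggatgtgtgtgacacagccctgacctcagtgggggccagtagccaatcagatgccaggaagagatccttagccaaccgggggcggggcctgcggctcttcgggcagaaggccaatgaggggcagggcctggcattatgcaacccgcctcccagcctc
Cry1, chr10:85185055-85185304, minus strand: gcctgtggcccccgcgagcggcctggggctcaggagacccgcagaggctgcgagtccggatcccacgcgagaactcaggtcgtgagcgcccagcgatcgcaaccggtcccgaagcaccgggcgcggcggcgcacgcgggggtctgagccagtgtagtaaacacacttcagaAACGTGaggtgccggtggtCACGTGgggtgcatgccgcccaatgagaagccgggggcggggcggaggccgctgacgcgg
Per3, chr4:151044666-151044915, minus strand: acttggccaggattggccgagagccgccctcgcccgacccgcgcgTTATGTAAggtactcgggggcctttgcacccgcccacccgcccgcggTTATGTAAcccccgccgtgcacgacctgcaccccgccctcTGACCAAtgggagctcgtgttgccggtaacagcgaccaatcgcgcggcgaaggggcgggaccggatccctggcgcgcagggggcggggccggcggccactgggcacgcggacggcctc
Nr1d1, chr11:98775378-98775627, minus strand: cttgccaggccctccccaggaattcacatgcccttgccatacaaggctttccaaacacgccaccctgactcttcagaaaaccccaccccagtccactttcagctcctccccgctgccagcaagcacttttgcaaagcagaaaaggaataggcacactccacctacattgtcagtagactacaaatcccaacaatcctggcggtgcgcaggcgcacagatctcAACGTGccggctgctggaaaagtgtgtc
In *Arntl* the capitals are a pair of ROR cores that begin 200 and 181 bases before the start. A second *Arntl* window holds a further ROR core, TAGGTCA, which lies after its start and is not shown. The E-box begins 166 bases before the start in the *Per1* window shown and 60 in *Cry1*, where the variant, read on the opposite strand as AACGTG, begins 79 bases before it. A second *Per1* window, at another start, held 0 matches. *Per3* holds a pair of D-boxes 205 and 158 bases before the start and a ROR core on the opposite strand. In *Nr1d1* the variant lies on the opposite strand, 28 bases before the start.

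The first question was whether clock genes differed between K19 *Itga3* KO and WT mice. None of the 10 did at an adjusted p below 0.05 (edgeR's quasi-likelihood test, Benjamini-Hochberg over all genes tested), where 146 of all genes tested, or 0.673%, passed. At an unadjusted p below 0.05, 3 of the 10 members passed, *Per1*, *Per2* and *Cry2*, all with lower values in KO, against a background of 11.5% of all genes in either direction and 5.97% lower in KO. By sign, 9 of the 10 log2 fold changes were negative, with a median of -0.32, where the median of all genes was 0.00. In limma-voom, DESeq2, other scalings, stricter filters and fits that drop a library, 12 alternatives in all, 0 of the 10 passed as well.

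**Figure D1:**
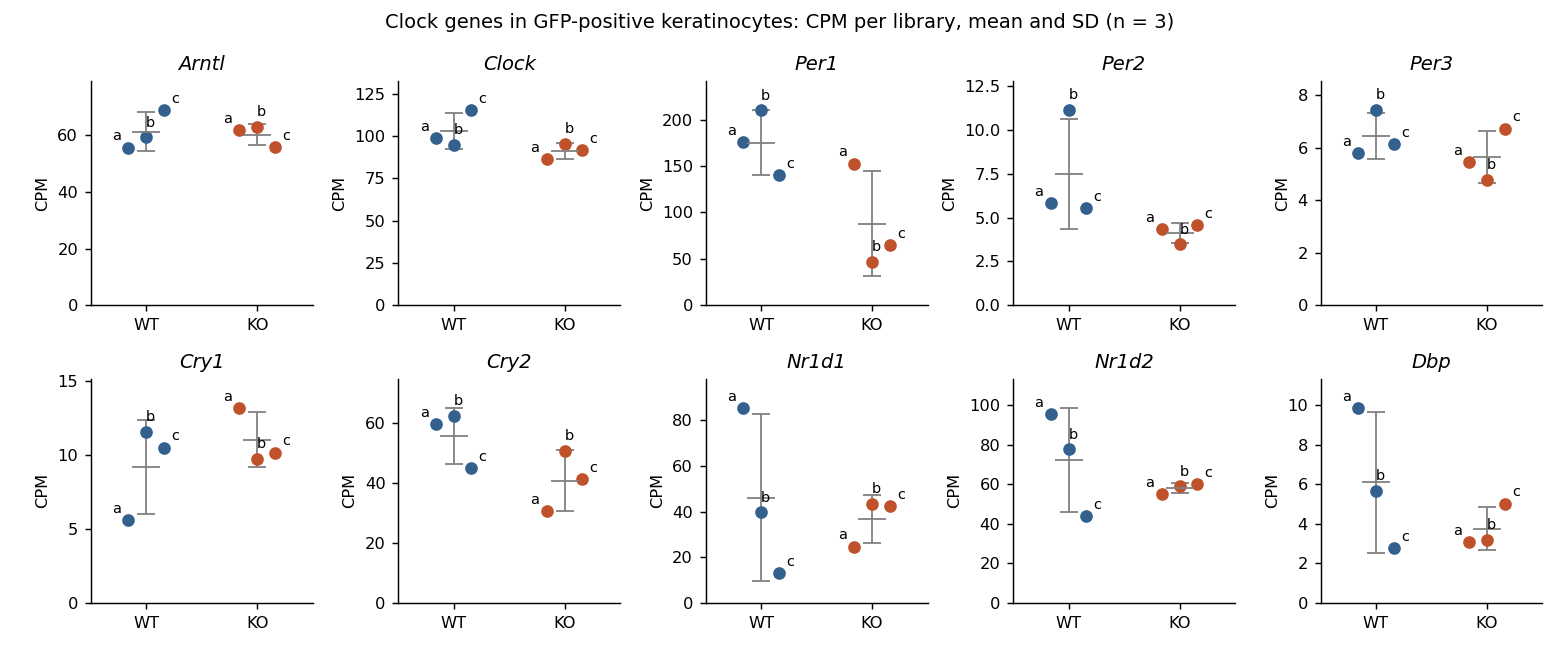
Each panel plots the TMM-scaled CPM of 1 clock gene (y axis, from 0) in WT and KO libraries (x axis). Blue and red points are libraries a, b and c of each genotype, and grey bars are the mean and SD (n = 3). Only in *Per2* do all KO libraries lie below all WT libraries, and *Nr1d1* spans 13.1 to 85.4 CPM within WT.

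The activators had the lowest SD within genotypes of the 10 genes, pooled over WT and KO, although within KO *Nr1d2* was the steadiest. Positions of genes are those of the count table (build GRCm38). *Arntl* (chr7:113207465-113314122, plus strand), the rhythmic activator, was at 55.6, 59.2 and 68.8 CPM in WT libraries a, b and c and at 61.8, 62.9 and 55.9 CPM in KO libraries a, b and c. The groups overlapped throughout, and the log2 fold change was -0.02 (SE 0.10, 95% interval -0.25 to 0.20, adjusted p = 0.951, edgeR's quasi-likelihood test). *Clock* (chr5:76212177-76304548, minus strand), its partner, which varies little over the day in most tissues, was at 98.8, 94.8 and 115 CPM in WT and at 86.4, 95.4 and 91.7 CPM in KO. Its highest library was WT c, as for *Arntl*, and KO b was above WT b. For *Clock* the log2 fold change was -0.18 (SE 0.10, interval -0.39 to 0.04, adjusted p = 0.552). For both activators the intervals leave out a change by a log2 value of 0.5 in either direction.

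The *Per* genes form the negative limb and are also induced acutely by hormones and other signals. *Per1* and *Per2* had the most negative log2 fold changes of the 10 genes. *Per1* (chr11:69095217-69109960, plus strand) was at 175, 210 and 140 CPM in WT and at 153, 46.7 and 64.6 CPM in KO. Libraries KO b and KO c were below all WT libraries, whereas KO a lay between WT c and WT a. The mean was 175 ± 35.0 CPM in WT and 88.0 ± 56.7 CPM in KO (SD, n = 3). This was a log2 fold change of -0.99 (SE 0.33, interval -1.72 to -0.26, adjusted p = 0.245, edgeR's quasi-likelihood test across all genes). With 1 library left out the log2 fold change of *Per1* ran from -1.65 without KO a (adjusted p = 0.0532, the lowest of any member in any alternative) to -0.67 without KO b (adjusted p = 0.454). *Per1* lies on chromosome 11, as does *Itga3*, at a distance of 25.9 Mb.

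*Per2* (chr1:91415982-91459324, minus strand) was a low gene, with 127, 243 and 126 counts (5.83, 11.1 and 5.56 CPM) in WT and 102, 74 and 95 counts (4.34, 3.47 and 4.59 CPM) in KO. It was the only 1 of the 10 members whose groups did not overlap, a pattern found in 8.23% of all genes tested for KO below WT. WT b was well above the other WT libraries, which lay just above the KO libraries. The log2 fold change was -0.86 (SE 0.27, interval -1.45 to -0.27, adjusted p = 0.203, edgeR's quasi-likelihood test across all genes), and without WT b it was -0.46 (adjusted p = 0.469). The exact two-sided permutation test gave p = 0.1 for *Per2*, the smallest that 3 against 3 libraries allow. *Per3* (chr4:151003652-151044665, minus strand), a modulator of the loop that is not essential to it, was at 5.78, 7.42 and 6.13 CPM in WT and at 5.44, 4.78 and 6.72 CPM in KO, with overlapping groups and a log2 fold change of -0.19 (SE 0.19, interval -0.61 to 0.23, adjusted p = 0.681). *Per3* lies within *Camta1* on the same strand, which had a mean of 90.3 CPM, so the counts of *Per3* are uncertain.

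The *Cry* genes encode the partners of PER proteins and the stronger direct repressors of BMAL1 and CLOCK, and the 2 genes differed in sign. *Cry1* (chr10:85131702-85185054, minus strand) was at 5.60, 11.5 and 10.5 CPM in WT and at 13.2, 9.75 and 10.2 CPM in KO. WT a was below the other libraries by a wide margin, and the groups overlapped. This came to a log2 fold change of 0.26 (SE 0.24, interval -0.26 to 0.78, adjusted p = 0.681). *Cry2* (chr2:92403646-92434043, minus strand) was at 59.5, 62.2 and 45.0 CPM in WT and at 30.5, 50.5 and 41.2 CPM in KO. WT a and WT b were above all KO libraries, while WT c lay below KO b. Its mean was 55.6 ± 9.29 CPM in WT and 40.7 ± 10.0 CPM in KO, a log2 fold change of -0.45 (SE 0.17, interval -0.83 to -0.07, adjusted p = 0.329, edgeR's quasi-likelihood test across all genes).

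The REV-ERB genes and *Dbp*, direct targets of BMAL1 and CLOCK, varied more among the WT mice than the genotype means differed. *Nr1d1* (chr11:98767932-98775333, minus strand), which encodes REV-ERBα, was at 85.4, 39.7 and 13.1 CPM in WT and at 24.6, 43.4 and 42.5 CPM in KO, so that the 3 KO libraries lay within the WT range. WT a was 6.54 times WT c, and the SD of log2 CPM within WT was above that of 99.3% of the 12778 genes with a mean of at least 1 CPM and no library at 0. The log2 fold change was -0.32 (SE 0.47, interval -1.34 to 0.70, adjusted p = 0.802, edgeR's quasi-likelihood test), so the interval runs from 0.394 to 1.63 times the WT level. The log2 fold change was 0.49 without WT a and -0.76 without WT c. *Nr1d1* overlaps *Thra* on the opposite strand, and the counting used strand. It lies 3.69 Mb from *Itga3* on chromosome 11.

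*Nr1d2* (chr14:18204054-18239127, minus strand), which encodes REV-ERBβ, was at 95.6, 77.8 and 43.8 CPM in WT, in the same order of libraries as *Nr1d1*, and at 55.3, 59.0 and 60.2 CPM in KO. The KO libraries were close together, at a highest to lowest ratio of 1.09 against 2.18 in WT, and lay within the WT range. *Dbp* (chr7:45705088-45710155, plus strand), a PAR bZIP factor that serves as a readout of clock output, was at 9.87, 5.68 and 2.78 CPM in WT (215, 124 and 63 counts) and at 3.06, 3.19 and 5.03 CPM in KO. WT a was again the highest library and WT c the lowest, and the KO libraries again fell within their range. The log2 fold changes were -0.32 for *Nr1d2* (SE 0.21, interval -0.77 to 0.14, adjusted p = 0.636) and -0.70 for *Dbp* (SE 0.38, interval -1.52 to 0.12, adjusted p = 0.533). Without WT a they were -0.06 for *Nr1d2* and -0.17 for *Dbp*, and without WT c -0.58 and -1.05. Within WT, the SD of log2 CPM of *Nr1d2* was above that of 93.8% of the ranked genes, and that of *Dbp* above 97.7%. Within KO the same ranks were 21.7% for *Nr1d2*, 92.9% for *Dbp* and 95.1% for *Nr1d1*. Among the members *Per1* had the highest rank within KO, 99.4%, and *Arntl* and *Clock* were at 51.3% and 48.5% within WT.

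Divided by exon length, the mean level over the 6 libraries was highest for *Per1* (23.4 CPM per kb), followed by *Nr1d1* (13.5) and *Nr1d2* (12.1). *Arntl* (8.07), *Cry2* (7.62) and *Clock* (7.07) were close to one another. *Cry1* was at 3.03 CPM per kb, *Dbp* at 1.65, *Per2* at 0.994 and *Per3* at 0.629. The 3 *Per* genes thus covered the whole range of the clock genes on this scale.

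To describe the state of the clock in each mouse, the log2 level of each gene was centered on its mean over the 6 libraries and averaged by role. The output arm (*Nr1d1*, *Nr1d2* and *Dbp*) was at 1.00 in WT a, 0.27 in WT b and -0.88 in WT c, and at -0.42, -0.10 and 0.12 in KO a, b and c. WT a and WT c thus stood at opposite ends, and the 3 KO libraries lay between them. The *Per* genes were at 0.22, 0.74 and 0.12 in WT and at -0.02, -0.76 and -0.30 in KO. Their highest library was WT b, and all KO libraries were below all WT libraries, narrowly so for KO a against WT c. Singly this held for *Per2* only, a pattern found in 8.23% of all genes tested. *Per1* was higher in KO a than in WT c (0.40 against 0.28). *Per3* was higher in KO c (0.17) than in WT a and WT c (-0.05 and 0.03). The *Cry* genes were within -0.23 to 0.32 and the activators within -0.10 to 0.22, with WT c highest for the activators. The order of the libraries by *Per* genes was therefore not their order by output genes.

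**Figure D2:**
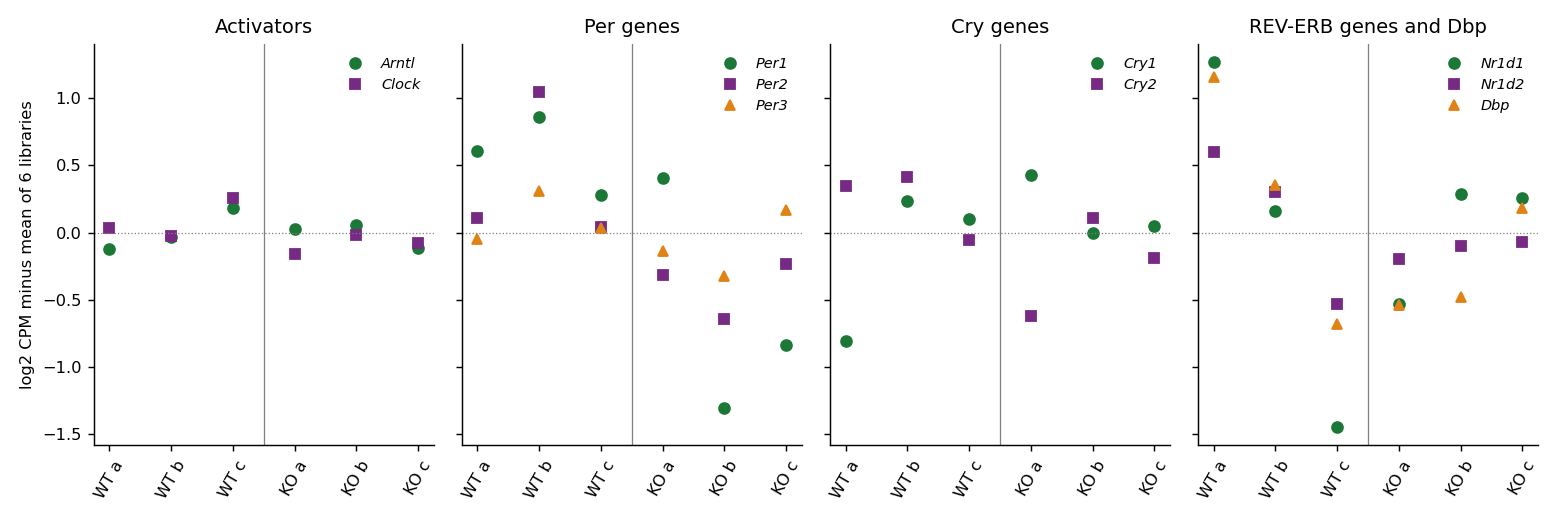
Each panel plots, for the genes of 1 role, the log2 CPM of a gene minus its mean over the 6 libraries (y axis) in each library (x axis, WT left and KO right of the line). The REV-ERB genes and *Dbp* are all highest in WT a (mean 1.00) and lowest in WT c (mean -0.88), while *Per1* and *Per2* are highest in WT b and *Arntl* and *Clock* stay near 0.

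The balance between output and activator was then taken within a library, as the log2 ratio of levels per kb, which does not depend on scaling between libraries. *Dbp* over *Arntl* was -1.17, -2.05 and -3.30 in WT and -3.01, -2.97 and -2.14 in KO. The WT libraries spanned 2.14 and the KO libraries 0.86 on this log2 scale. The means, -2.17 ± 1.07 and -2.71 ± 0.49 (SD, n = 3), differed by less than the SD within WT. *Nr1d1* over *Arntl* was 1.91, 0.71 and -1.11 in WT and -0.04, 0.76 and 0.89 in KO, and the KO and WT means differed by 0.03. In WT a, *Nr1d1* was thus the more abundant transcript per kb and in WT c *Arntl* was. *Per1* over *Arntl* was 2.08, 2.24 and 1.44 in WT and 1.72, -0.01 and 0.63 in KO, a difference of means of -1.14 with KO a inside the WT range.

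Over the 6 libraries the level of *Arntl* ran against that of its known repressors and of *Dbp*. Pearson's r with *Arntl* was -0.86 for *Nr1d1* (exact permutation p = 0.0417), -0.80 for *Nr1d2* (exact p = 0.0514) and -0.84 for *Dbp* (exact p = 0.0319). These 3 were among 9 relations tested, and after Benjamini-Hochberg adjustment each had an exact permutation p of 0.154, so none passed. Spearman's rho was -0.66 for *Nr1d1* (exact p = 0.175, adjusted 0.525) and -0.89 for both *Nr1d2* and *Dbp* (exact p = 0.0333, adjusted 0.15). With each library taken relative to its genotype mean, r was -0.87, -0.89 and -0.98 for *Nr1d1*, *Nr1d2* and *Dbp* (exact permutation within genotype, p = 0.167, 0.0556 and 0.0556, adjusted 0.5, 0.25 and 0.25). WT a and WT c were the libraries farthest from the median of *Arntl*. Without them r was -0.36 for *Nr1d1* and -0.28 for *Nr1d2*, whose r over all libraries thus leans on these 2 mice. For *Dbp* it was -0.80. These values carry no test, because few libraries remain and leaving out the extremes of *Arntl* narrows its range. Among 10792 genes with a mean of at least 5 CPM, an r as low as that of *Nr1d1* or lower was found in 0.482%, of *Dbp* in 0.815% and of *Nr1d2* in 1.13%. The points share their scaling, and the whole range of *Arntl* was a factor of 1.24.

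**Figure D3:**
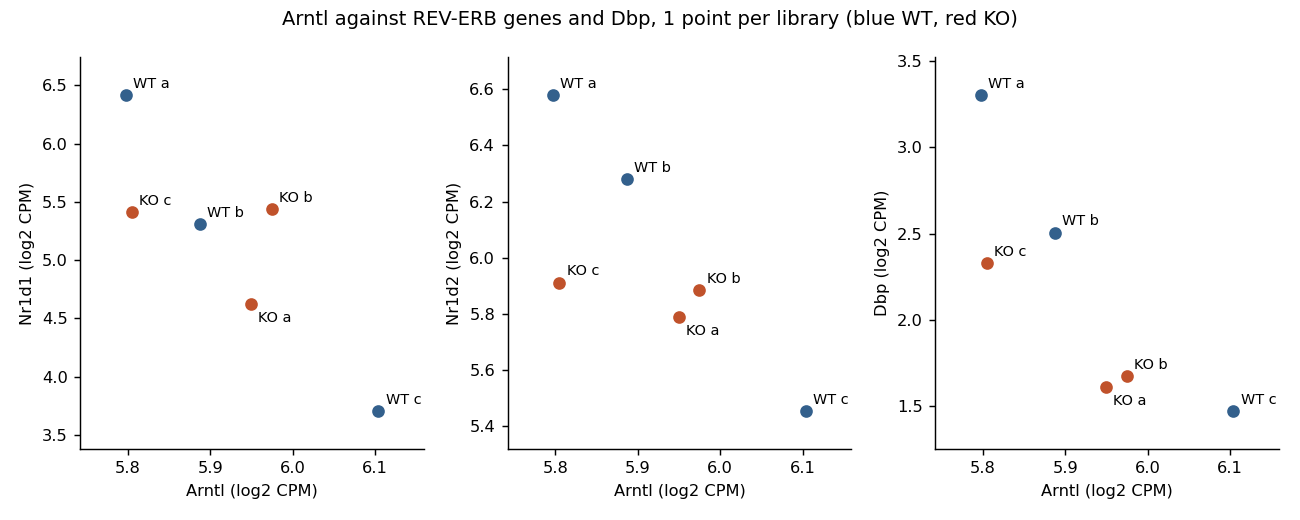
The log2 CPM of *Nr1d1*, *Nr1d2* and *Dbp* (y axes) is plotted against that of *Arntl* (x axis), with 1 point per library, blue for WT and red for KO. In each panel WT a lies at the top left and WT c at the bottom right, and r is -0.86, -0.80 and -0.84.

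The 6 other relations with *Arntl* were weaker. Pearson's r was 0.58 for *Clock* (exact permutation p = 0.232, adjusted p = 0.522) and 0.47 for *Cry1* (exact p = 0.329, adjusted p = 0.593). It was -0.03 for *Per1*, -0.17 for *Per2*, -0.30 for *Per3* and -0.26 for *Cry2*, with an exact permutation p of at least 0.553. The 3 output genes went together over the 6 libraries, at r = 0.90 for *Nr1d1* with *Nr1d2*, 0.84 for *Nr1d1* with *Dbp* and 0.93 for *Nr1d2* with *Dbp*, which are descriptions without a test. *Per2* went with *Per3* at r = 0.82 and with *Per1* at 0.75, and none of the *Per* genes went with *Nr1d1* beyond 0.08 in either direction. With *Nr1d2*, r was 0.34, 0.44 and 0.21 for *Per1*, *Per2* and *Per3*, and with *Dbp* 0.35, 0.45 and 0.37, also without a test.

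A wider list held 18 further clock genes, of which 1 was higher and 0 were lower in KO at an adjusted p below 0.05 (0.673% of all genes in either direction). *Bhlhe40* (DEC1), an E-box repressor of clock transcription that is also induced by stress and hypoxia, rose from 130, 156 and 135 CPM in WT to 245, 189 and 209 CPM in KO. All KO libraries were above all WT libraries, and the log2 fold change was 0.61 (SE 0.11, interval 0.36 to 0.86, adjusted p = 0.0416, edgeR's quasi-likelihood test). The size held between 0.50 and 0.70 in all 12 alternatives, but the call held in 5 of them. The adjusted p was 0.112 in limma-voom, 0.0535 with library size only, 0.131 with filterByExpr and 0.132 when every library had to hold 10 counts. It was 0.368 without WT c, 0.290 without KO a and 0.145 without KO c. Its paralog *Bhlhe41* (DEC2) was at 6.33, 7.47 and 6.53 CPM in WT and at 10.5, 10.1 and 12.1 CPM in KO, again without overlap, at a log2 fold change of 0.69 (SE 0.15, adjusted p = 0.0722, edgeR). Groups were apart in 5 of the 18 genes, which also include *Gsk3b*, higher in KO, and *Rora* and *Fbxl21*, lower in KO. Over all genes tested, 8.23% had all KO libraries below WT, and the share for KO above WT is not given here.

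The other PAR bZIP factors, relatives of *Dbp* that act on the same D-boxes, had negative values. *Tef* was at 58.2, 120 and 30.3 CPM in WT and at 22.2, 27.7 and 33.5 CPM in KO (log2 fold change -1.32, SE 0.37, adjusted p = 0.145), and *Hlf* at 16.9, 6.64 and 11.0 CPM in WT and at 5.48, 8.16 and 6.87 CPM in KO (-0.75, SE 0.29, adjusted p = 0.316). The high library was WT b for *Tef* and WT a for *Hlf*, and the groups overlapped in both. *Nfil3*, which competes with them for D-boxes, was at 85.3 ± 11.8 CPM in WT and 103 ± 25.2 CPM in KO (0.28, adjusted p = 0.552).

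Of the nuclear receptors that activate *Arntl* through ROR elements, *Rora* was at 59.7 ± 3.82 CPM in WT and 53.4 ± 4.54 CPM in KO (-0.16, adjusted p = 0.599), and *Rorb* was at or near the floor. The activator paralogs *Npas2* and *Arntl2*, which can stand in for *Clock* and *Arntl*, had log2 fold changes of -0.53 (adjusted p = 0.318) and -0.41 (adjusted p = 0.538). The repressor *Ciart* (0.37) and the ligase gene *Fbxl21* (-0.57, adjusted p = 0.406) stayed below 3 CPM. The kinases, ligases and co-repressors that act on clock proteins (*Csnk1d*, *Csnk1e*, *Gsk3b*, *Btrc*, *Fbxw11*, *Ncor1*, *Hdac3*) had log2 fold changes of -0.09 to 0.14, none past the threshold.

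**Figure D4:**
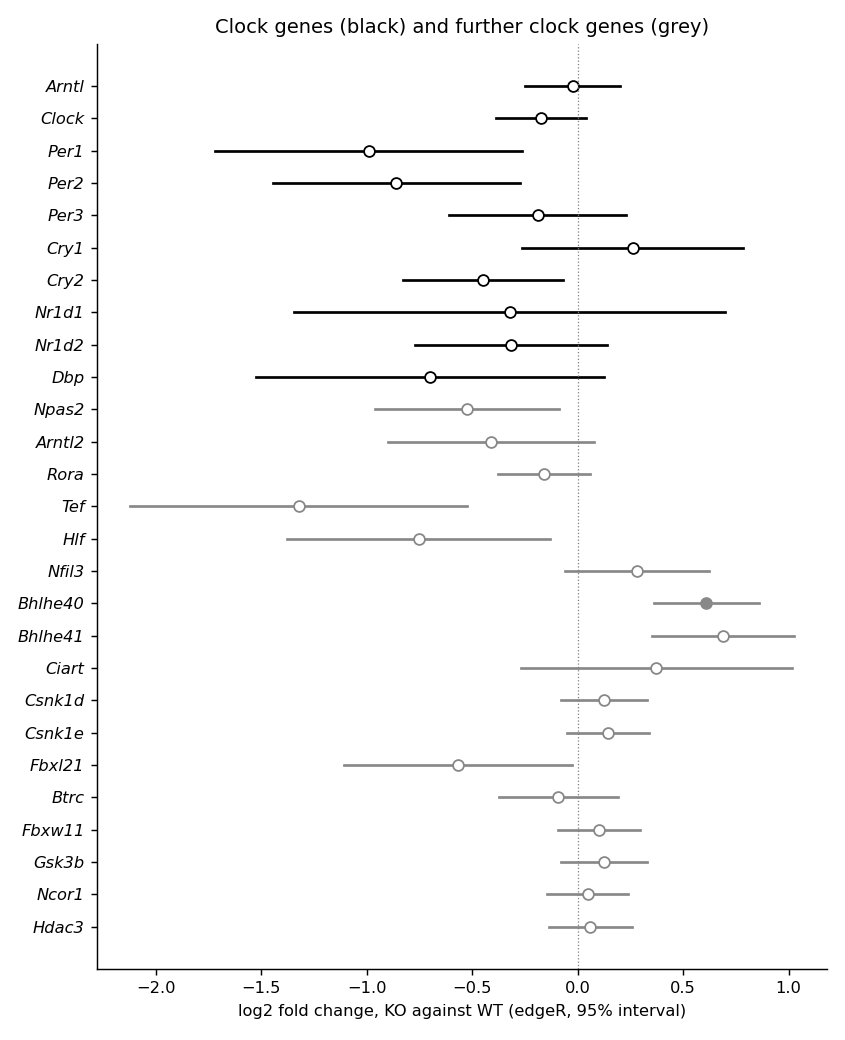
The log2 fold change of KO against WT (x axis) is plotted for the 10 clock genes (black) and the further clock genes (grey, without *Rorb*, which was at or near the floor), with 95% intervals from edgeR. The filled point, *Bhlhe40* at 0.61, is the 1 gene with an adjusted p below 0.05, and *Per1* and *Per2* lie at -0.99 and -0.86.

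Of 9 genes driven by the clock or by its output factors, 0 passed in edgeR (0.673% of all genes tested) or limma-voom. In DESeq2 2 passed, where 546 of all 21681 genes did. An unadjusted p below 0.05 in edgeR was found for 3 (11.5% of all genes tested), and the median log2 fold change was -0.05. The smallest p was that of *Cdkn1a*, the cell cycle inhibitor p21, which is under REV-ERB control in other tissues and is also a p53 target. It was at 126, 149 and 145 CPM in WT and at 296, 197 and 199 CPM in KO, without overlap (log2 fold change 0.72, SE 0.15, adjusted p = 0.0567, edgeR's quasi-likelihood test). *Usp2*, a deubiquitinase gene with strong rhythms, was at 36.4 ± 7.19 CPM in WT and 24.6 ± 2.35 CPM in KO (-0.57, adjusted p = 0.113). Groups were apart in 2 of the 9 genes, *Cdkn1a* and *Usp2*.

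Glucocorticoids reset peripheral clocks and induce *Per1* directly, so 7 glucocorticoid-responsive genes were read beside the *Per* genes. In edgeR, limma-voom and DESeq2 0 of them passed, 2 had an unadjusted p below 0.05 in edgeR (11.5% of all genes), and their median log2 fold change was 0.01. The 3 with the smallest p were all highest in WT b, the library that was also highest for *Per1*, *Per2*, *Per3*, *Cry2* and *Tef*. WT b was highest as well for the activator paralogs *Npas2* (46.7 CPM) and *Arntl2* (34.4 CPM), and for some other clock-controlled genes. The same held narrowly for *Hdac3*, and near the floor for *Rorb*. The other 4 glucocorticoid-responsive genes were not highest in WT b, and *Errfi1* (57.9 CPM) and *Dusp1* (405 CPM) were at their lowest in it. *Zbtb16* (PLZF) was at 26.0, 317 and 46.6 CPM in WT and at 13.9, 22.7 and 11.6 CPM in KO (log2 fold change -3.01, SE 0.73, adjusted p = 0.0963, edgeR). *Tsc22d3* (GILZ), also among the clock-controlled genes, was at 26.4, 57.0 and 10.4 CPM in WT and at 12.9, 8.49 and 6.38 CPM in KO (-1.75, SE 0.47, adjusted p = 0.127). *Fkbp5*, a co-chaperone of the glucocorticoid receptor, was at 22.6, 160 and 23.5 CPM in WT and at 26.6, 33.1 and 27.3 CPM in KO (-1.25, SE 0.59, adjusted p = 0.449). Without WT b the log2 fold change was 0.33 for *Fkbp5*, -1.18 for *Zbtb16*, -0.99 for *Tsc22d3*, -0.67 for *Tef* and -0.84 for *Per1* (adjusted p = 0.123 to 0.493, edgeR). The part of this library's state in the values of the *Per* genes was not tested.

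**Figure D5:**
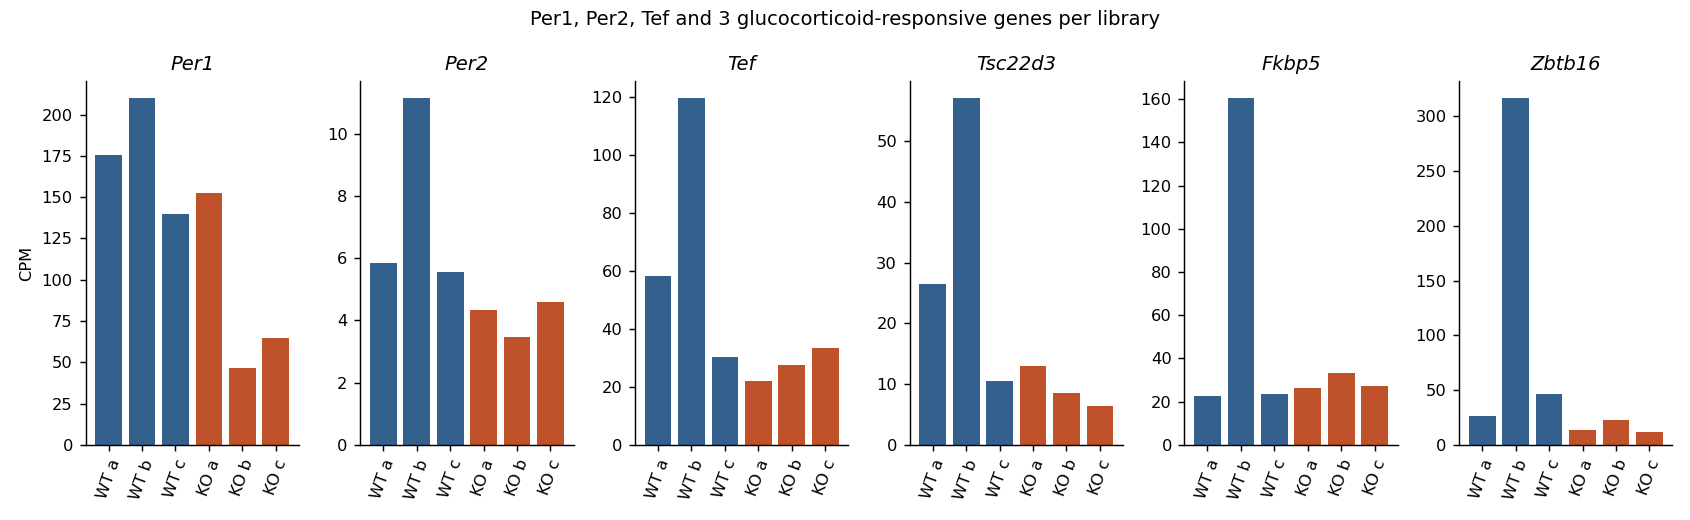
Bars give the CPM (y axis, from 0) of *Per1*, *Per2*, *Tef* and 3 glucocorticoid-responsive genes in each library (x axis, blue WT and red KO). WT b is the highest library in all 6 panels, by the widest margin in *Fkbp5* (160 CPM) and *Zbtb16* (317 CPM).

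*Per1* also belongs to the genes that stimuli induce within minutes, as do the immediate early genes, of which 10 were read. In edgeR and limma-voom 0 passed, in DESeq2 1 (546 of all 21681 genes), and 3 had an unadjusted p below 0.05 in edgeR (11.5% of all genes). All 10 log2 fold changes were positive, as were 10841 of the 21681 over all genes, with a list median of 0.32, whereas that of *Per1* was negative. *Zfp36*, which encodes an mRNA decay factor, had the smallest p (1082, 820 and 773 CPM in WT and 1396, 1341 and 1252 CPM in KO, log2 fold change 0.58, SE 0.13, adjusted p = 0.0722, edgeR). *Junb* (0.41, adjusted p = 0.259) and *Atf3* (0.59, adjusted p = 0.305) followed. Summed over the list, WT a was at 15668, WT b at 8177, WT c at 9756 and the KO libraries at 13192 to 15369 CPM, so WT b was lowest here. Without WT a, 7 of the 10 passed, in a fit where 521 of all 21387 genes tested passed. Of 8 proliferation genes 0 passed, and 0 had an unadjusted p below 0.05 (edgeR), and their summed level was 499, 927 and 1159 CPM in WT and 736 to 1040 CPM in KO. By this sum, to which *Mki67* and *Top2a* gave most of the differences, WT a, highest in *Nr1d1*, *Nr1d2* and *Dbp*, was lowest and WT c was highest. Single genes did not all follow it, as WT b and not WT a was lowest for *Pcna* (96.6 against 115 CPM), *Mcm2* (76.4 against 111 CPM) and *Mcm5* (80.2 against 101 CPM). The share of the cell cycle in these differences between mice was not tested.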

How the data were processed

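For library preparation the authors used a stranded mRNA kit. Single reads of 65 bases were aligned with TopHat2 2.1.0 and Bowtie 1.1 (the submitters' processing notes) to mouse build GRCm38, and reads with 1 place in the genome were counted on the sense strand of Ensembl 77 genes. The deposited values are these counts, without normalization. The names of the 6 columns hold the genotype and numbers that no label ties to a sample, so libraries were named a, b and c in table order. The study gives 1 mouse per library, and p-values measure the spread between these mice.

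The test was that of edgeR 4.0.16 in R 4.3.3 (TMM factors, glmQLFit and glmQLFTest), with Benjamini-Hochberg adjustment over the 21681 genes counted in any library, and it gave each adjusted p with no tool beside it. CPM are scaled by TMM factors (0.981 to 1.03). Intervals come from the fit and carry its spread between mice but no other source of error, and floors cover counting error only. Exon lengths came from the reference annotation, which gave 6 of the 10 members the coordinates of the count table. Alternatives were limma-voom (limma 3.58.1), DESeq2 1.42.0, library size only, upper-quartile factors, each library left out, and 2 filters, 10 counts or more in every library (13054 genes) and filterByExpr (13811 genes). The code was tested on simulated counts.

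The members and gene lists were chosen with earlier results of these data known. The 10 members and any further clock gene were named, in the clock-controlled, glucocorticoid-responsive and immediate early lists up to 3 genes with the smallest p, and for likeness to *Arntl* the 3 highest and 3 lowest r. Single genes of the marker, glucocorticoid-responsive and proliferation lists beyond these were named after their values were seen. Some results on further clock genes are not reported here, and the counts leave them out.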

Additional observations from a re-analysis of the deposited data

How the results depend on the processing

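No paired analysis was possible because the numbers in the column names of the count table match no replicate number of the labels. The labels and the study's methods also name no litter, batch or pair that ties a WT mouse to a KO mouse. Equal replicate numbers in the labels are therefore not known to mark matched mice. Beside the edgeR fit, the number of all genes past an adjusted p of 0.05 (146) was 24 in limma-voom, 546 in DESeq2, 15 with filterByExpr, 12 when every library had to hold 10 counts, and 5 (without WT c) to 521 (without WT a) when 1 library was left out. It was 10 without KO a and 30 without KO c. The number of the 10 clock genes past it was 0 in all 12 alternatives, at a lowest adjusted p of 0.0532. For the further clock genes (1) the number was 0 in limma-voom, with library size only, with filterByExpr and with the filter at 10 counts, 2 in DESeq2, and 0 to 1 when 1 library was left out. For the clock-controlled genes (0) it was 2 in DESeq2 and 0 to 1 when 1 library was left out, for the glucocorticoid-responsive genes (0) 0 to 1, and for the immediate early genes (0) 1 in DESeq2 and 0 to 7. The sign changed in 4 of 120 fits of the clock genes. The log2 fold change of *Arntl* was -0.081 to 0.069 and that of *Nr1d1* -0.76 to 0.49 when 1 library was left out, and that of *Nr1d1* was 0.013 in limma-voom. Likewise *Fkbp5* covered -1.66 to 0.33. With *Npas2* in place of *Arntl* the balance of *Cry1* (KO minus WT) went from 0.33 to 0.83, without overlap between the groups, that of *Per1* from -1.14 to -0.64, *Per2* from -0.77 to -0.28, *Per3* from -0.18 to 0.32, *Cry2* from -0.44 to 0.05, *Nr1d1* from 0.03 to 0.53, *Nr1d2* from -0.22 to 0.27 and *Dbp* from -0.54 to -0.04. This change of reference moved every gene by the same amount, because only the reference differed. The amount reflects that *Npas2* was lower in KO relative to *Arntl* (log2 fold changes -0.53 and -0.02, edgeR). The causes of the other changes were not tested. With 3 libraries per genotype, *Nr1d1* and *Dbp* varied too much for a decrease by a log2 value of 1 to lie outside their intervals.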

Other observations

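Among 10792 genes with a mean of at least 5 CPM, the genes most like *Arntl* over the 6 libraries were *Sdr42e1* (r = 0.98), *Sptssa* (0.97), which encodes a small subunit of serine palmitoyltransferase, and *Rtcb* (0.96), the tRNA ligase. *Rtcb* was at 131, 134 and 148 CPM in WT and at 141, 138 and 128 CPM in KO, in the same order of libraries as *Arntl* except between KO a and KO b and between KO c and WT a. The genes that ran most against *Arntl* were *Rev3l* (r = -0.97), the catalytic subunit of a translesion DNA polymerase, *Setbp1* (-0.97) and *Acin1* (-0.97). These 6 are the extremes of 10792 correlations over 6 libraries and carry no test.

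*Cry1*, which in many tissues peaks late, close to *Arntl*, ran against the output genes, at r = -0.69 with *Nr1d1*, -0.66 with *Nr1d2* and -0.76 with *Dbp*, and against its paralog *Cry2* at r = -0.57 (descriptions over 6 libraries, without a test).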
